A study of Rattus norvegicus with 30 samples.

Results

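The data described here are 217 promoters of the rat genome, read by methyl-binding domain sequencing (MBD-seq). They took a larger share of the promoter counts in the ipsilateral thalamus than in the perilesional cortex and the ipsilateral hippocampus. They were chosen by their counts. A promoter was kept when its median CPM (the count divided by all promoter counts of a library and scaled to 1e6) over the 10 thalamus libraries was at least 20, and when that median plus 1 was at least 1.5 times the median plus 1 of the cortex and also of the hippocampus. The 217 promoters made up 1.10% of 19758 promoters that could be matched between the tissues, and 1.604% of the 13529 with at least 20 CPM in the thalamus. The same rule applied to the other tissues chose 181 promoters for the cortex and 594 for the hippocampus.

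The 30 libraries came from 10 adult male Sprague-Dawley rats. Rats 1 to 5 were sham-operated controls, which received anaesthesia, craniectomy and all other surgery, and rats 6 to 10 received a traumatic brain injury (TBI) by lateral fluid percussion. Each rat gave 1 library of each tissue, dissected 3 months after the operation, and per the labels the hippocampal piece was the dentate gyrus with part of CA3. The labels give no genotype beyond the strain and no treatment other than surgery and its anaesthesia. The tissue was cut out whole, so that the libraries hold DNA of neurons, glia and vessels together. With bulk tissue, more methylation within 1 cell type and more cells of a methylated type cannot be told apart.

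In the mammalian genome, methyl groups sit mostly on the cytosine of CpG pairs. Promoters that are rich in CpG usually stay free of methylation whether or not the gene is active, whereas promoters poor in CpG are often methylated in the tissues that do not use them. Brain regions differ in their mixture of neurons, oligodendrocytes, astrocytes and other cells, each with a methylation pattern laid down in development. MBD-seq pulls down fragments through a protein domain that binds methylated CpG, so that a count grows with the number of methylated CpG in the window and also with CpG content and with the stringency of the pull-down. A count says how much DNA was captured, and not which share of the copies was methylated. Each promoter window reached from 5000 bp before to 200 bp after the transcription start site. The windows carried Ensembl gene identifiers with no symbols, positions or sequences, and because the reference tables used here did not hold these identifiers, the genes are not named and their functions are not given.

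Promoter counts per library totalled 2675177 to 4227800 in the thalamus, 1862708 to 3992056 in the cortex and 1430875 to 2440662 in the hippocampus. A level of 20 CPM therefore rested on 53.5 to 84.6 counts in the thalamus, 37.3 to 79.8 in the cortex and 28.6 to 48.8 in the hippocampus. Across all matched promoters other than the 217, 26 of the 30 libraries had their highest Pearson r with the median profile of their own tissue. Values were log2(CPM + 1), and a library was left out of the median of its own tissue. The cortex libraries of rats 4 and 6 were closest to the hippocampus (r = 0.968 and 0.962, against 0.897 and 0.878 with the cortex). The hippocampus library of rat 5 was closest to the cortex (0.956, against 0.856). The thalamus library of rat 6 was about as close to the hippocampus (0.928) as to the thalamus (0.926). These 4 libraries had their highest r with another tissue, by a very narrow margin in the thalamus library of rat 6. In this sense they are said here to go against their labels. They entered all medians, counts and tests unless their omission is stated. The cortex library of rat 10 was closest to its own tissue, but with the lowest r of all 30 libraries (0.724, against 0.566 with the hippocampus and 0.643 with the thalamus). For the thalamus, the paper describes a different sequencer through its RNA-seq methods, while the labels give 1 instrument for every library. If a different sequencer was used, tissue and instrument cannot be told apart.

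Over the 217 promoters, the median of the tissue medians was 43.6 CPM in the thalamus (quartiles 34.0 and 63.1), 25.6 CPM in the cortex (18.8 and 36.7) and 16.01 CPM in the hippocampus (10.1 and 30.4). All 19758 matched promoters had 30.6, 30.2 and 20.9 CPM. The 217 were thus above all matched promoters in the thalamus and below them in the cortex and hippocampus. All matched promoters had no level floor, however, whereas the 217 had to reach 20 CPM in the thalamus. The 13529 promoters with at least 20 CPM in the thalamus had medians of 41.4 CPM there, 39.98 CPM in the cortex and 33.4 CPM in the hippocampus. Beside these, the 217 were close in the thalamus and differed mainly by lower levels in the cortex and hippocampus. The excess, defined as the smaller of the thalamus ratios to the cortex and to the hippocampus, had a median of 1.63 and reached 4.62. In all matched promoters its median was 0.920. Because these values chose the promoters, they are a description and no test was made of them.

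Most of the excess was modest. It was under 1.6 in 95 promoters, at least 2 in 30 and at least 3 in 2. The 3 promoters just inside the ratio limit had an excess of 1.5007, 1.5018 and 1.5032, and the 3 just outside it 1.4996, 1.4994 and 1.4992. At the level limit, the values were 20.055, 20.301 and 20.344 CPM inside and 19.923, 19.889 and 19.861 CPM outside. A further 175 promoters at 20 CPM or more had an excess from 1.4 to 1.5, and 27 with an excess of at least 1.5 were left out for their low level. The scatter of tissue ratios showed no gap between the chosen promoters and the rest, and the chosen ones formed the corner of a continuous cloud.

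**Figure D1:**
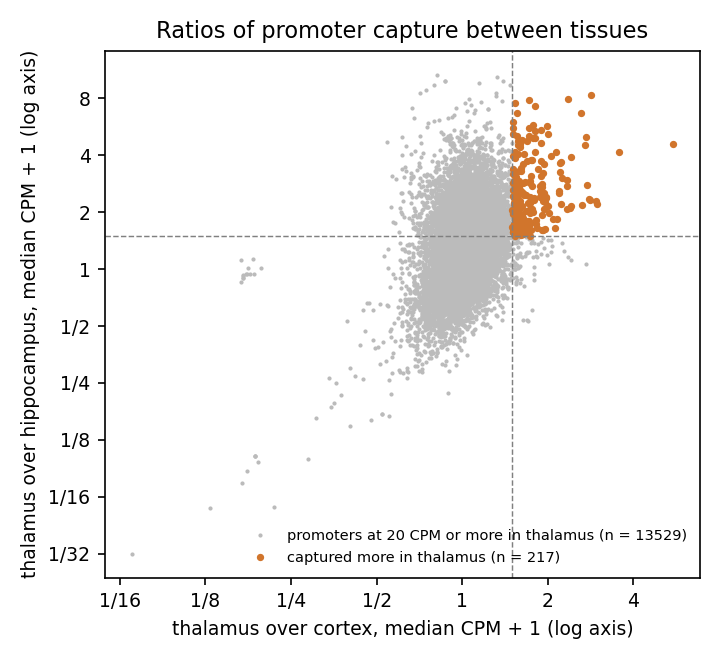
Each point is a promoter with at least 20 CPM in the thalamus, placed by the ratio of its median CPM plus 1 in the thalamus to that in the cortex (horizontal, log axis) and in the hippocampus (vertical, log axis), with dashed lines at 1.5. The 217 chosen promoters (orange) lie in the upper right corner, adjoin the 13529 promoters as a whole (grey, the chosen ones included), and 2 of them lie at a ratio of 3 or more on both axes.

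The ratio to the cortex was the smaller one in 184 of the 217 promoters. The median ratio of thalamus to cortex was 1.65, and that of thalamus to hippocampus 2.39. Across all matched promoters, these ratios were 0.969 and 1.30. Part of the distance to the hippocampus was therefore common to promoters as a whole on the scale of library totals. When the libraries were scaled by TMM (the trimmed mean of M values, which equalises the bulk of promoters), the median log2 ratio of thalamus to hippocampus over all matched promoters moved from 0.38 to 0.04, a shift of −0.34. Over the 217 it moved from 1.26 to 0.93. The ratio to the cortex moved little, from 0.72 to 0.74 in the 217 and from −0.05 to −0.01 in all. With TMM, all 217 promoters kept an excess over 1, with a median of 1.58 and a lowest value of 1.08, and 132 kept an excess of at least 1.5.

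Levels in the thalamus ran from 20.1 to 8887 CPM. They were under 40 CPM in 91 promoters, over 100 CPM in 24 and over 200 CPM in 4. The list thus held mainly promoters of middling capture with a short tail of strongly captured ones.

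In single libraries, the median level of the 217 promoters was 39.9, 45.9, 44.9, 48.6 and 44.6 CPM in the thalamus of sham rats 1 to 5. It was 28.4, 45.3, 47.7, 47.3 and 38.5 CPM in the thalamus of TBI rats 6 to 10. In the cortex it was 24.2, 28.2, 27.9, 19.7 and 29.5 CPM in sham rats and 16.3, 29.8, 30.1, 29.99 and 17.5 CPM in TBI rats. The thalamus values of 9 rats lay above every cortex value, and that of rat 6 lay among them. In the hippocampus the medians were 13.0, 21.7, 16.8, 14.96 and 27.3 CPM in sham rats and 15.9, 16.1, 17.5, 20.2 and 16.4 CPM in TBI rats. The highest hippocampus value was that of rat 5, the library that resembled the cortex. The thalamus library of rat 6 was low over promoters in general, with a median of 18.2 CPM over all matched promoters, where the other 9 thalamus libraries had 26.9 to 33.5 CPM. In each of the 10 thalamus libraries, the median of the 217 promoters was above that of all matched promoters, which had no level floor.

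**Figure D2:**
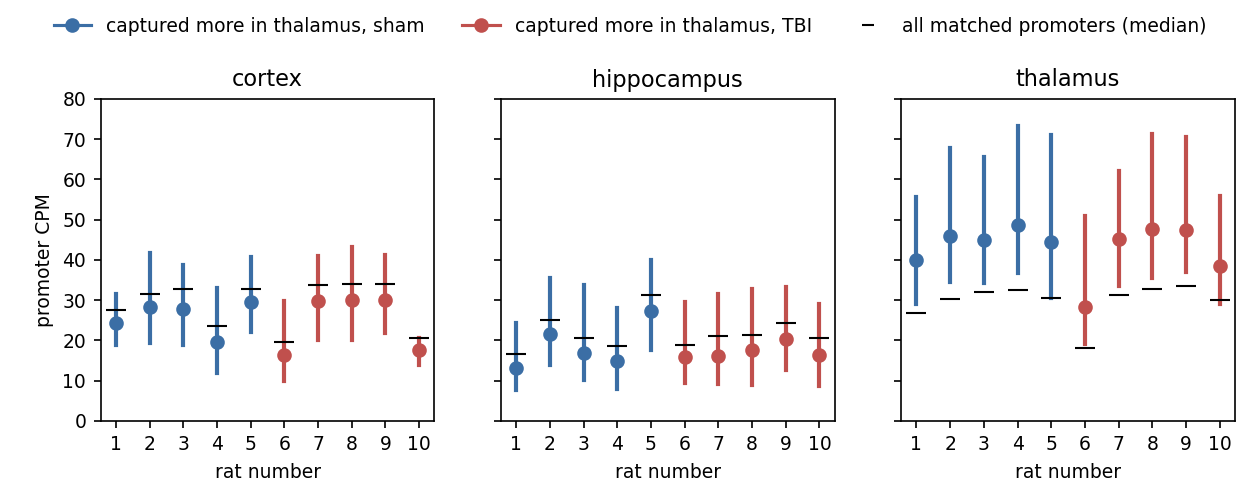
CPM of the 217 promoters in every library, by tissue and rat number, with sham in blue and TBI in red. Points are medians over the 217 promoters, vertical bars span the quartiles, and black dashes mark the median of all matched promoters in the same library. The points lie above the dashes in every thalamus library and below them in every cortex and hippocampus library.

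The rank order was read within each rat, which compares libraries of 1 animal. In 170 of the 217 promoters (78.3%), the thalamus CPM was above both other tissues in all 10 rats, as it was in 3.09% of the 13529 promoters at 20 CPM or more. In a further 29 promoters this held in 9 rats and in 14 in 8 rats, and the fewest was 7. For a single rat, the median excess of the 217 ranged from 1.404 in rat 5 to 2.29 in rat 4, and 196 to 217 promoters had an excess over 1. The median excess of all promoters at 20 CPM or more was 0.945 in rat 5 and 1.14 in rat 4. Rats 4 and 5 are the rats with a cortex library like the hippocampus and a hippocampus library like the cortex, respectively. Rat 10, with no library that went against its label, had 1.76 in the 217 and 1.14 in all promoters at that level. Rat 6, with such a cortex and thalamus library, had 1.53 and 0.862. In 40 of the 217 promoters all 10 thalamus libraries lay above all 20 others, which was true of 0.228% of all matched promoters. Without the 4 libraries that went against their labels, it was true of 79 of the 217 and of 0.552% of all. These counts follow from the medians that chose the promoters, and nothing further is read from them.

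The median coefficient of variation of the 217 promoters over 10 libraries was 19.8% in the thalamus, 29.9% in the cortex and 30.1% in the hippocampus. In promoters at 20 CPM or more it was 17.8%, 28.1% and 23.2%. Within the thalamus it was 14.6% over the 5 sham and 23.7% over the 5 TBI libraries, the latter including rat 6. Promoters at 20 CPM or more had 14.5% and 20.8%. In the hippocampus the order was the opposite, with 30.8% over the sham libraries, which include rat 5, and 21.5% over the TBI libraries.

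The promoter with the largest excess was ENSRNOG00000007049. In the thalamus it had 366, 444, 457, 419 and 559 CPM in sham rats 1 to 5 and 493, 329, 457, 600 and 279.7 CPM in TBI rats 6 to 10. The cortex had 23.5 to 130.1 CPM with a median of 81.0, and the hippocampus 65.4 to 132.8 CPM with a median of 96.7. The lowest thalamus library was more than 2 times the highest library of either other tissue, so that the tissues did not overlap. The ratio of medians was 5.50 to the cortex and 4.62 to the hippocampus. Sham and TBI rats overlapped widely within the thalamus (449 ± 70.7 and 432 ± 129 CPM, SD, n = 5 each).

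ENSRNOG00000012742 had the next largest excess, at a level about 10 times lower. Its thalamus values were 27.2, 45.9, 32.3, 46.4 and 46.4 CPM in sham and 52.5, 33.9, 45.1, 42.1 and 36.0 CPM in TBI rats. The cortex had 6.44 to 16.5 CPM with a median of 11.5, and the hippocampus 5.56 to 30.5 CPM with a median of 9.67. All thalamus libraries were above all cortex libraries. A single hippocampus library, that of rat 9 with 30.5 CPM, overlapped the thalamus range, and the other 9 hippocampus libraries had at most 14.8 CPM. Both of these promoters stayed high in the thalamus library of rat 6 and low in the hippocampus library of rat 5.

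**Figure D3:**
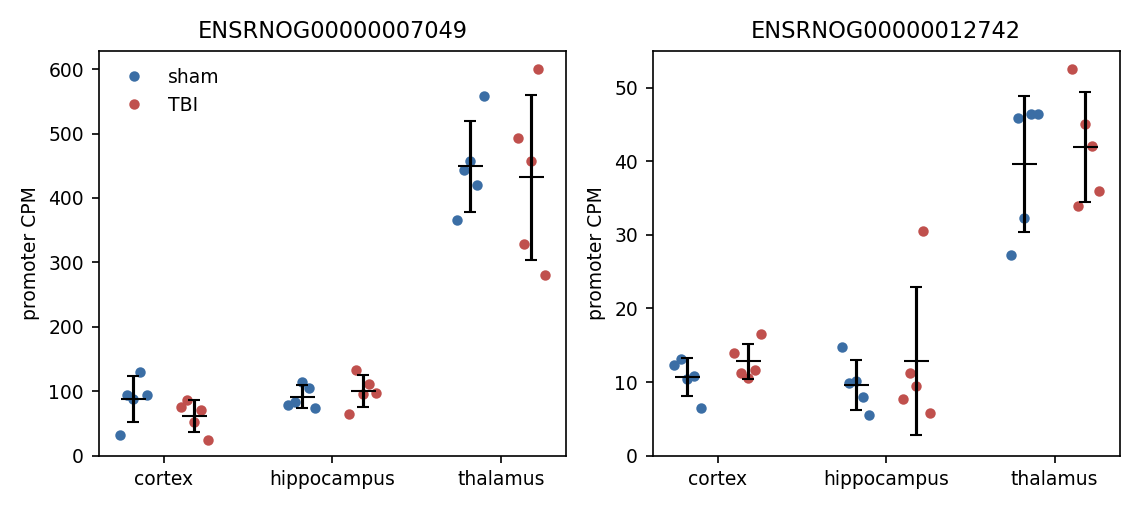
CPM of the promoters with the largest excess, ENSRNOG00000007049 (left) and ENSRNOG00000012742 (right), in the 3 tissues, 1 point per library with sham in blue and TBI in red. Black dashes and bars give the mean and SD of 5 libraries, and the axes start at 0. Thalamus points stand clear of the other tissues, except for 1 hippocampus library of the right panel at 30.5 CPM.

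The third largest excess, 2.84, belonged to a promoter of another kind. It had 69.3, 70.7, 86.9, 87.1 and 81.6 CPM in the thalamus of sham rats and 36.9, 79.9, 87.5, 85.5 and 75.9 CPM in TBI rats. Its cortex median was 27.8 CPM and its hippocampus median 8.81 CPM, so that the 3 tissues formed a series. Rat 6 had the lowest thalamus value, and rat 5 had the highest hippocampus value (25.8 CPM, against 4.21 to 20.3 CPM in the other rats). The cortex libraries of rats 4 and 6 had 9.36 and 5.96 CPM, against 15.03 to 47.8 CPM in the others. Here each of the 4 libraries that went against their labels held a value away from its own tissue.

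The most strongly captured promoter of the list had a median of 8887 CPM in the thalamus, 4110 in the cortex and 4829 in the hippocampus. Its thalamus values were spread from 5298 to 20228 CPM, with 18895 in rat 1, 20228 in rat 6, and 11178, 12180 and 11522 in rats 2, 7 and 10. The other 5 thalamus libraries had 5298 to 6596 CPM. In the cortex, rats 1 and 6 had 8054 and 12558 CPM and the other 8 had 3187 to 4422. In the hippocampus, rats 1, 6 and 10 had 12425, 14287 and 12251 CPM and the other 7 had 3144 to 8068. Rats 1 (sham) and 6 (TBI) were high in all 3 tissues, and rats 2, 7 and 10 were high in the thalamus but not in the cortex. The 217 promoters together held 1.82% to 3.05% of the promoter counts of a thalamus library, and 1.03% to 1.45% without this promoter, so that their level was described by medians.

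The promoters were divided into 2 kinds by a limit set on the ratio of cortex to hippocampus. This ratio ran from 0.744 to 4.94, and a gap at the limit was not looked for. In 88 promoters, called graded here, the cortex level was at least 1.5 times that of the hippocampus. Their medians were 37.7, 22.5 and 10.1 CPM in the thalamus, cortex and hippocampus. They were 40.6% of the list, beside 41.9% of all matched promoters and 29.8% of those at 20 CPM or more in the thalamus. In the remaining 129, called level, the cortex and hippocampus were within 1.5 times of each other, with medians of 48.9, 29.4 and 25.6 CPM. None of the 217 had a hippocampus level at least 1.5 times that of the cortex, as 5.43% of the promoters at 20 CPM or more did. The cortex was above the hippocampus in 184 of the 217 (84.8%) and in 66.1% of promoters at that level. The 2 kinds had nearly the same median excess, 1.62 and 1.63.

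The levels of both kinds were then read in the libraries that stood apart. Because these libraries were picked for their likeness to the cortex or the hippocampus, and graded promoters are defined by the ratio of these tissues, the direction of the deviations in graded promoters was fixed by the choice, and the values are a description. Deviations were taken on the scale of log2(CPM + 1) from the median of the tissue's 10 libraries. In the 88 graded promoters, the thalamus library of rat 6 had a median deviation of −1.06, while the other thalamus libraries had −0.18 to 0.13. In the 129 level promoters it had −0.30, and the others −0.26 to 0.15. Rat 6 was more than 2-fold below the thalamus median in 50 of the 88 graded promoters and in 4 of the 129 level ones. In the hippocampus, the graded promoters of rat 5 stood 1.16 above the median (others −0.39 to 0.50), while the level promoters stood at 0.06. In the cortex, the graded promoters were at −0.73 in rat 4 and −1.10 in rat 6, and the level promoters at −0.08 and −0.21. The other cortex libraries had −0.40 to 0.32 in graded and −0.72 to 0.12 in level promoters. Both low ends were those of rat 10, whose level promoters were further from the median than those of any of the 4 libraries.

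Promoters outside the list were described in the same way. The likeness of the 4 libraries was judged on matched promoters outside the list. The direction in graded promoters was therefore again fixed by the choice, and the values are a description. Among the other promoters at 20 CPM or more, 3942 were graded and 8635 level by the same limit. In these graded promoters the thalamus library of rat 6 was at −1.09, the hippocampus library of rat 5 at 1.12 and the cortex libraries of rats 4 and 6 at −0.76 and −1.05. In the level promoters these libraries were at −0.34, 0.09, 0.02 and −0.17, and the cortex library of rat 10 was at −0.93. The displacement of these libraries was about as large in promoters outside the list as in the 217. The same libraries also contribute to the medians that define the kinds.

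**Figure D4:**
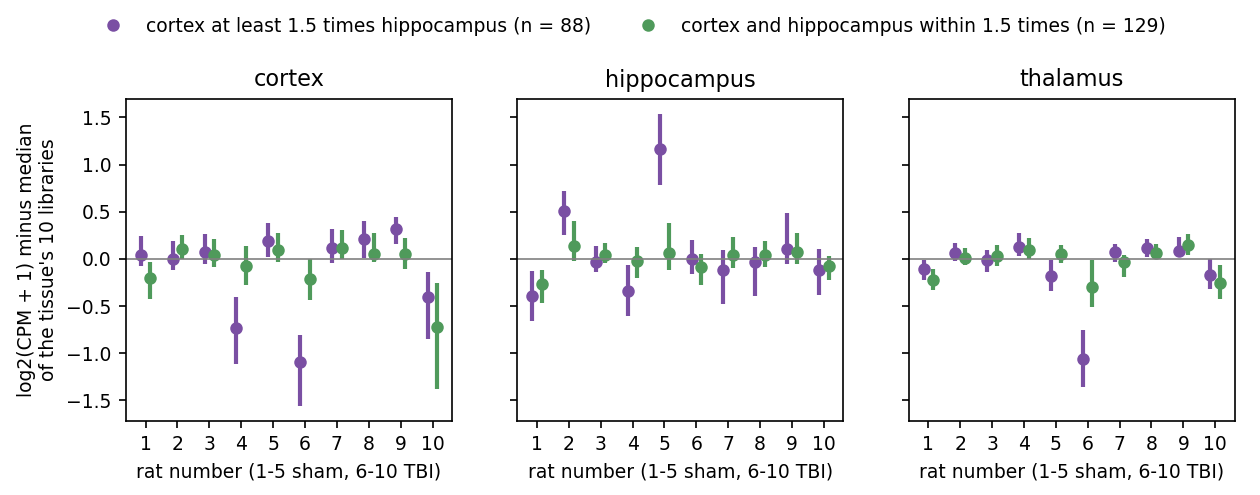
Median deviation from the tissue's median library, in log2(CPM + 1), for the 88 graded (purple) and 129 level promoters (green) in each library, by rat number, with bars spanning the quartiles over promoters. Graded promoters fall to −1.06 in the thalamus of rat 6 and to −0.73 and −1.10 in the cortex of rats 4 and 6, and rise to 1.16 in the hippocampus of rat 5, while level promoters stay within −0.30 to 0.06 in these 4 libraries and fall to −0.72 in the cortex of rat 10.

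Whether the excess was present in both treatment groups was examined with each group apart. Over the 217 promoters, the median excess was 1.66 in sham and 1.68 in TBI rats, and all 217 had an excess over 1 in both groups (lowest 1.06 and 1.06). At least 1.5 was reached by 171 promoters in sham and 163 in TBI rats. Since both groups entered the choice of promoters, the rule was also applied to 1 group and the promoters were read in the other. It chose 286 promoters in the sham rats, and in the TBI rats 279 of them (97.6%) had an excess over 1, as 41.3% of all promoters at 20 CPM did. Their median excess fell from 1.64 to 1.46. An excess of at least 1.5 was kept by 127 of the 286 (44.4%) and present in 2.32% of all. Chosen in the TBI rats, 324 promoters had a median excess of 1.38 in the sham rats, 307 (94.8%) were over 1, with 43.9% of all promoters, and 126 (38.9%) were at least 1.5, with 2.03% of all. The 2 lists shared 124 promoters, 43.4% of the sham and 38.3% of the TBI list. Most of these promoters thus had the same direction in the group that had not chosen them, with a smaller excess. Both groups share the scaling to library totals and any difference of sequencer between tissues. The source of the excess was not tested, and the promoters are not replicates of the rats.

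TBI and sham rats were compared in each tissue with edgeR's quasi-likelihood test over all promoter windows, a contrast that did not choose the list. In the thalamus, all 217 promoters could be tested and 0 passed an adjusted p of 0.05, as 0% of the 21894 windows did. An unadjusted p under 0.05 was found for 2 of the 217, both lower in TBI, where 0.484% of all windows were lower and 0.904% differed in either direction. The median log2 fold change of TBI over sham was −0.01 in the 217 and 0.02 in all windows. In 0 of the 217 did the 5 TBI and 5 sham thalamus libraries not overlap, as in 0.0405% of the matched promoters.

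The promoters with the lowest p in the thalamus were ENSRNOG00000022966 and ENSRNOG00000010253. ENSRNOG00000022966 had 69.3, 75.8, 61.8, 82.2 and 75.4 CPM in sham and 28.1, 71.6, 63.3, 65.9 and 56.7 CPM in TBI rats, so that the groups overlapped and rat 6 was by far the lowest. Its log2 fold change was −0.32 (SE 0.136, unadjusted p = 0.0330, adjusted p = 1.00 with edgeR's quasi-likelihood test), and −0.24 without rat 6 (SE 0.109). ENSRNOG00000010253 had 33.1 to 40.7 CPM in sham and 17.0 to 35.2 CPM in TBI rats, again with rat 6 lowest. It had a log2 fold change of −0.24 (SE 0.110), and −0.20 (SE 0.112) without rat 6. Neither was called.

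A less cautious test gave 1 call in the list. The exact test of edgeR with a common dispersion and TMM, chosen after seeing the data, called 3 thalamus windows (0.0137%), of which ENSRNOG00000020406 was among the 217 (log2 fold change 0.84, adjusted p = 0.0203). Its thalamus values were 373, 298, 166, 192 and 160 CPM in sham and 896, 256, 173, 180 and 183 CPM in TBI rats. The highest value was that of rat 6, and without that rat the log2 fold change in the quasi-likelihood test was −0.35 (SE 0.214). In the main test it was 0.84 with an SE of 0.541 and was not called.

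In the cortex, 0 of the 217 promoters were called and 0 had an unadjusted p under 0.05, beside 0% and 0.773% of 22110 windows. No promoter of the list separated TBI from sham cortex libraries, where 0.0607% of matched promoters did. In the hippocampus, 206 of the 217 had enough counts for the test, and 0 were called (0% of 20017 windows). The unadjusted p was under 0.05 in 7 of the 206 (3.4%), beside 2.85% of all windows. Of these, 6 (2.91%) were lower in TBI, beside 1.6% of all windows. This direction did not hold without rat 5. Then 2 were higher and 1 lower, and all windows moved from 250 higher and 320 lower to 456 higher and 229 lower. With limma voom and sample quality weights, 5 were higher and 2 lower. In 1 promoter of the list all TBI hippocampus libraries lay below all sham libraries, and 0.187% of matched promoters had no overlap in either direction.

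That promoter was ENSRNOG00000032729, with the lowest p of the list in the hippocampus. It had 8.88, 13.1, 8.18, 8.88 and 27.3 CPM in sham and 6.48, 6.29, 4.74, 6.29 and 7.38 CPM in TBI rats. The highest value was that of rat 5, the library like the cortex. The log2 fold change was −0.96 (SE 0.322, unadjusted p = 0.00825, adjusted p = 1.00, edgeR's quasi-likelihood test), and −0.66 (SE 0.307) without rat 5. The exact test with TMM called 0.779% of the hippocampus windows, including 1 of the 206, ENSRNOG00000012659. In that promoter rat 5 had 50.5 CPM, the other sham rats 5.14 to 13.0 CPM and the TBI rats 4.51 to 11.2 CPM. The 1 promoter that was higher in the main test, ENSRNOG00000012664, had 3.74 to 13.8 CPM in sham and 6.97 to 18.9 CPM in TBI rats with a log2 fold change of 0.87 (SE 0.343).

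**Figure D5:**
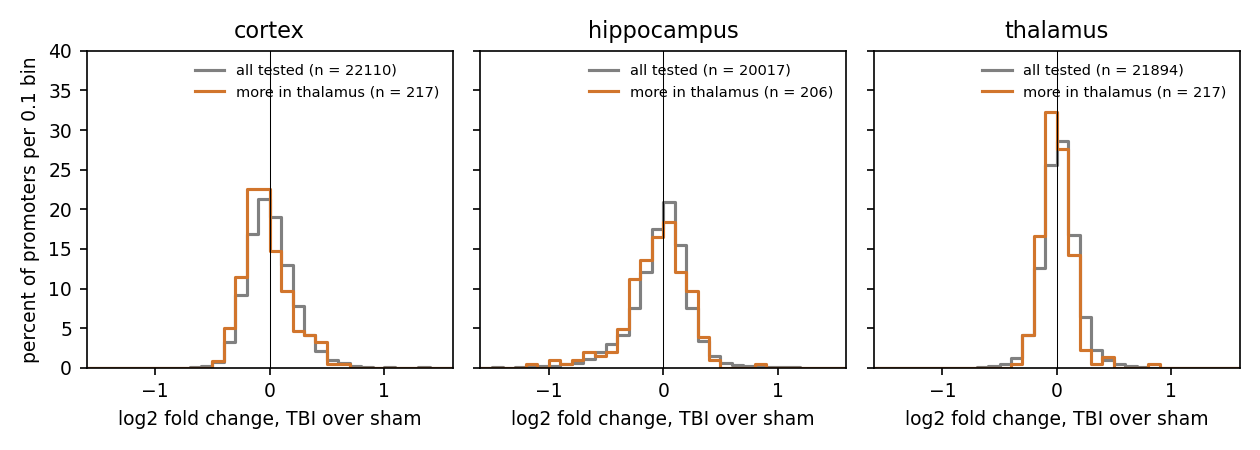
Distribution of the log2 fold change of TBI over sham in each tissue, as the percent of promoters per bin of 0.1, for all tested windows (grey) and for the chosen promoters (orange). Both distributions centre near 0 in each tissue, with medians of −0.01 and 0.02 for the chosen and all windows in the thalamus.

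Whether the ratio of the thalamus to another tissue differed between sham and TBI rats was tested by the term for tissue combined with TBI. Each fit took 1 other tissue, so that it tested that ratio and not the excess. The main fit did not pair the tissues of a rat. Against the cortex, 0 of the 217 were called (0% of 19677 promoters), and 5 had an unadjusted p under 0.05 (2.3%), of which 4 were lower, beside 0.798% and 0.462% lower of all promoters. Among them, ENSRNOG00000036876 had a difference of log2 fold changes of −0.46 (SE 0.173). Its thalamus medians were 45.8 CPM in sham and 42.8 in TBI rats, and its cortex medians 27.9 and 36.1 CPM. Without rats 4 and 6 the difference was −0.49 (SE 0.182). The higher one, ENSRNOG00000010099, had 0.52 (SE 0.230), and 0.37 (SE 0.220) without rats 4 and 6.

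Against the hippocampus, 0 of the 217 were called (0% of 19555 promoters). The unadjusted p was under 0.05 in 4 of the 217 (1.84%), all with a larger ratio of thalamus to hippocampus in TBI rats. Of all promoters, 1.88% had such a p, and 1.26% had it in that direction. This direction did not hold without rat 5. It was then under 0.05 in 5 of the 217, with 1 larger and 4 smaller in TBI rats. Of all 19572 promoters tested without rat 5, 176 were larger and 276 smaller. The lowest p belonged to ENSRNOG00000033135, whose log2 difference was 1.92 (SE 0.562, unadjusted p = 0.00213, adjusted p = 1.00, edgeR's quasi-likelihood test). It had 8.88, 5.25, 2.41, 2.80 and 13.6 CPM in the hippocampus of sham rats and 0.819 to 2.69 CPM in that of TBI rats, while its thalamus values were 14.3 to 25.8 CPM in sham and 6.15 to 29.8 CPM in TBI rats. These hippocampus values rested on 2 to 6 counts per TBI library and 5 to 27 per sham library. The promoter had too few counts for the test within the hippocampus and entered the interaction through its thalamus counts. The thalamus is the tissue for which it was chosen as high, so that nothing is read from its p-value. Of the 217, 206 had enough counts for the test within the hippocampus. With at least 10 counts in every library, 168 were tested. An unadjusted p under 0.05 was then found for 2, with 1 in each direction, beside 248 of 14038 promoters. Without rat 5 the difference was 1.45 (SE 0.572). Both interactions share the thalamus libraries. With the rat as a block, 6 of the 217 had an unadjusted p under 0.05 against the cortex, 1 higher and 5 lower. Against the hippocampus there were then 4, with 3 higher and 1 lower.

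Some of the promoters may not be separate measurements. No pair had equal counts in all 30 libraries, but 13 pairs formed from 15 promoters differed by under 10% of their summed counts. Overlapping windows and near-identical sequences were not examined. Gene body counts were sparse, and 39 of the 217 genes (18.0%) had none in any library, as did 12.3% of those at 20 CPM or more. Only 32 had at least 20 gene body counts over the thalamus libraries (14.7%, beside 25.3% of those at 20 CPM or more). In 20 of these 32 (62.5%) the mean gene body CPM was highest in the thalamus, beside 47.5% of 3425 genes with such counts. Genes entered this comparison through their thalamus counts, which also help decide which tissue is highest. Nothing is therefore read from these shares. The promoter window reaches into the gene, so that reads may be shared between these tables.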

How the data were processed

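MBD-seq libraries of perilesional cortex, hippocampus and thalamus from 5 sham-operated and 5 TBI rats were used. The authors mapped the reads with STAR without splicing to the rat genome (Rnor_5.0 per the labels) and counted reads in promoter, exon and gene body regions with Repitools in R 3.1.0. The deposited values were raw counts without normalization. Promoter counts and, for 1 description, gene body counts were used, and the exon tables were not used here. CPM was the count divided by the column sum. Rows were matched by identifier where it had a single set of counts in each table. Tests used filterByExpr (minimum count 10, minimum total 15), TMM and the quasi-likelihood F test of edgeR 4.0.16 in R 4.3.3 over all promoter windows of a tissue, or over the matched promoters for interactions, with Benjamini-Hochberg adjustment at 0.05. The SE is the log2 fold change divided by the square root of F. The fit was tested on simulated counts. DESeq2 1.42.0 and limma 3.58.1 served for alternatives. Replicates were separate rats, and replicate libraries differed by more than sampling noise (lowest chi-square per degree of freedom 2.07).

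The rat number in the labels pairs the tissues of 1 animal. The Pearson r of deviations from the group means between the thalamus and cortex libraries of a rat had a median of 0.12 (−0.20 to 0.78, 5 of 10 over 0.1), and between its thalamus and hippocampus libraries −0.06 (−0.42 to 0.18, 2 of 10 over 0.1).

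The promoters, the tests and the alternatives were chosen with earlier results of these data known. Because identifiers could not be paired with symbols, marker lists, pathway lists, positions and sequences were not used. Promoters were named by the largest excess, the highest thalamus level, the lowest p in the thalamus and in each interaction, and their place at the limits, with at most 2 identifiers per direction. Those named for the hippocampus and the exact test, the third largest excess and the graded and level kinds were picked with their values in view.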

Additional observations from a re-analysis of the deposited data

Results flagged for a closer look

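A library far from the other 4 of its group was found in 3 of 30 groups examined, made up of the median level and the summed share of the 217 promoters and the levels of 3 single promoters in each of 6 groups. Chance alone gives about 1 in 20, or 1.5 of 30. The most strongly captured promoter had 8054 CPM in the cortex library of rat 1, where rats 2 to 5 had 3832 to 4422 CPM. In the cortex library of rat 6 it had 12558 CPM, where rats 7 to 10 had 3187 to 3995 CPM. Promoter ENSRNOG00000012742 had 30.5 CPM in the hippocampus library of rat 9, where the 4 remaining injured rats had 5.74 to 11.2 CPM.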

How the results depend on the processing

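The number of promoters that met the rule was 217. It was 165 with TMM scaling (127 shared, 58.5% of the 217), 228 with means, 237 with a pseudocount of 0.1, 286 and 324 in the sham and TBI rats alone, 30 at a ratio of at least 2, 178 (161 shared) without the 4 libraries that stood apart (chosen after seeing the data), and 176 (without rat 4) to 303 (without rat 5) when each rat was left out. Across 17 alternatives for the thalamus, 1 made calls, and across 18 and 17 for the cortex and hippocampus, 2 did. No interaction was called in 17 alternatives each. With a common dispersion, the exact test called 7 cortex windows with library totals and 25 with TMM, 0 of the list in both, 156 hippocampus windows with either scaling, 1 of the list (ENSRNOG00000012659, log2 fold change −1.34 and −1.18, main −1.15, and −0.43 without rat 5), and 3 thalamus windows with TMM, 1 of the list. That promoter, ENSRNOG00000020406, reversed to −0.37 with voom quality weights and, with each rat left out, ranged from −0.35 (without rat 6) to 1.13. The cause was not tested for the other calls.

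The number of listed promoters with an unadjusted p under 0.05 in the thalamus was 2, and 1 with DESeq2, 0 with library totals, 1 with at least 10 counts in every library, 6 with voom, 1 and 4 with the exact test (library totals, TMM), and 0 to 7 when each rat was left out (7 without rat 6, when all windows rose from 198 to 1267). In the cortex it was 0, and 1 with DESeq2, 1 with at least 10 counts, 8 with voom, 5 without rats 4 and 6, and 0 to 6 in turn (6 without rat 6). In the hippocampus it was 7, and 3 with at least 10 counts, 14 with the exact test and library totals, and 3 to 10 in turn (3 without rat 5). For the interaction with the cortex it was 5, and 0 with library totals, 9 with voom, and 1 to 6 in turn (1 without rat 2). For the interaction with the hippocampus it was 4, and 2 with at least 10 counts, 7 with voom, 7 without rats 5 and 6, and 3 to 13 in turn (13 without rat 6). With the rat as a replicate block, the interactions had 0 calls each, with 6 (cortex) and 4 (hippocampus) listed promoters at an unadjusted p under 0.05, and no call changed. The cause of these movements was not tested. In the hippocampus, 206 of the 217 promoters had enough counts for the test.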
